A study of Mus musculus with 31 samples.

Results

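The cytochrome P450 genes described here are 64 protein-coding genes of mouse liver, taken from 55288 gene identifiers in the deposited count tables. A gene was a member when its GENCODE vM21 symbol reads Cyp, family number, subfamily letter and gene number, or is *Cyp51*. It also needed 10 or more counts in at least 3 livers of each of 2 tables, which hold 15 and 8 livers. The name pattern fits 95 genes, of which 31 missed the count minimum. *Cyp4f18* is the member nearest the minimum, with 10 counts or more in 7 livers of the insulin experiment and 3 of the other 8. Just outside were *Cyp2d11* (12 and 2 livers), *Cyp2a4* (3 and 1), *Cyp26c1* (1 and 4) and *Cyp2g1* (1 and 6). The 64 members fall into 14 families, with 32 in family 2, 13 in family 4, 4 in family 3, 3 in family 1, 2 each in families 7 and 26, and 1 each in families 8, 17, 20, 21, 27, 39, 46 and 51.

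The study examined how the nuclear receptor ERRα takes part in insulin action, with bulk RNA sequencing of mouse liver and skeletal muscle. In the insulin experiment, WT and whole-body ERRα-/- mice were fasted overnight for 12 h, given an injection of saline or insulin (1 unit/kg), and killed for liver 4 h later at zeitgeber time 6. In the knock-in experiment, homozygous ERRα3SA mice, made with CRISPR/Cas9 so that serines S19, S22 and S26 of ERRα are replaced by alanine, were compared with WT littermates. The groups are WT saline (4 livers), WT insulin (4), ERRα-/- saline (4), ERRα-/- insulin (3, numbered 1, 2 and 4), WT littermate (4 livers and 4 muscles) and ERRα3SA (4 livers and 4 muscles), 31 samples in all. Both mouse lines are on the C57BL/6N background, and the methods give male littermates of 2 to 3 months on a standard diet as the default. The labels list no treatment for the knock-in experiment and do not say whether those mice were fasted, so groups are tested within an experiment only. Levels of both experiments are set side by side without a test.

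Cytochrome P450 enzymes are haem proteins that insert an atom of oxygen into their substrate, with electrons passed on by P450 reductase in the endoplasmic reticulum or by ferredoxin in mitochondria. In liver they turn cholesterol into bile acids, clear retinoic acid and steroids, hydroxylate fatty acids and oxidise drugs and other foreign compounds. Nuclear receptors and other transcription factors control many of their genes, some with a daily rhythm, by sex, or by position between the portal and central veins of the lobule.

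Total counts ran from 35871419 to 48317108 per liver in the insulin experiment and from 20481405 to 33412022 per sample in the knock-in experiment. Levels are counts scaled to a library of 1e6 (CPM) after TMM scaling within an experiment. *Esrra*, the gene deleted in ERRα-/- mice, measured 32.3, 51.3, 42.7 and 40.5 CPM in WT saline livers and 53.7, 96.5, 56.1 and 59.0 in WT insulin livers. ERRα-/- livers held 1.63, 0.703, 1.15 and 1.04 CPM of it with saline and 0.833, 0.576 and 0.298 with insulin. WT littermates held 26.2, 25.7, 26.8 and 28.0 CPM and ERRα3SA livers 28.0, 24.1, 20.02 and 18.4. Each ERRα-/- liver was below each WT liver, with log2 fold changes of −5.20, SE 0.24, adjusted p = 2.58e-06 under saline and −6.86, SE 0.37, adjusted p = 3.55e-05 under insulin. In WT livers *Esrra* was higher with insulin without overlap (0.67, SE 0.21), with WT insulin 2 far above the rest of its group. No adjusted p is given for this change, and it is not called a rise. The study itself reported that insulin for 4 h left ERRα mRNA in liver unaltered. Hepatocyte markers (5 genes) had counts in each of the 23 livers and were led by *Alb* in each, with a summed level of 76060.0 to 108000.0 CPM in 22 livers and 51360.0 in ERRα3SA 4. Y-linked *Ddx3y* led the sex markers in 23 of 23 livers and *Xist* was at 0 in 12 and at most 0.389 CPM elsewhere. The most abundant Kupffer, stellate, cholangiocyte and erythroid markers were *Clec4f*, *Dcn*, *Sox9* and *Hbb-bs* in each liver, and *Kdr* or *Stab2* led the endothelial list. Summed lymphocyte markers reached at most 2.57 CPM and adipocyte markers 1.98.

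Several libraries stood apart before any comparison. ERRα-/- saline 3 held 28.1 CPM of *Cyp2a4*, 53.3 of *Cyp2c40* and 36.2 of *Cyp2c69*, P450 genes known for female-predominant expression. The other 3 livers of its group held 0.218 to 1.05, 0.919 to 4.50 and 0 to 2.08 CPM of them. It was also the lowest of its group for *Cyp2d9*, with 1268, 1563, 595 and 962 CPM in ERRα-/- saline livers, and for the male-type gene *Elovl3* at 41.3 CPM, while *Xist* was at 0. ERRα-/- saline 4 was low for *Cyp2f2*, *Cyp3a11* and *Cyp3a25*, and its 4 acute-phase genes summed to 3706 CPM against 104 to 655 in the rest of the group. ERRα-/- saline 1 held 16.4 CPM of *Cyp7a1* and 18.4 of *Cyp2b9*. WT saline 3 carried a sum of 53.1 CPM of 5 adrenal cortex genes with 9.71 of *Cyp21a1*, WT insulin 1 carried 14.6 and ERRα-/- saline 2 9.63, against 0.852 to 3.09 in the other 20 livers. ERRα3SA 4 had the lowest hepatocyte sum and 3471 CPM of acute-phase genes, against 40.5 to 76.3 in the rest of its group, and ERRα3SA 3 held 283 CPM of *Cyp4a14* and 11.4 of *Cyp2b9*. Counts from the mitochondrial genome were 1.88% of the total in WT insulin 2 and 3.88 to 4.17% in the rest of its group. This liver was the highest of its group for *Esrra*, *Cyp17a1*, *Cyp26a1*, *Cyp2c39* and *Cyp2d40*. Mean mitochondrial shares were 4.32% in WT saline, 3.36% in ERRα-/- saline and 3.29% in ERRα-/- insulin livers.

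A DEG here is a gene with an unadjusted p under 0.05 and a change of at least 1.2-fold by edgeR. High acute-phase sums also occurred in WT saline 1 (1673 CPM) and 2 (4810.0) and in WT insulin 1 (1795) and 2 (4114). The 4 genes of that list, led by *Saa1* in 22 of 23 livers, were all DEGs with higher expression in ERRα3SA (2.5% of all genes). In that group ERRα3SA 4 stood far above the rest, as given above. The adrenal and acute-phase lists were drawn up after the data were seen, so these calls describe the livers and do not test genotype. Exocrine pancreas markers summed to 697 CPM in WT saline 1, 1019 in WT saline 4, 157 in ERRα-/- saline 1, 108 in WT insulin 4 and 372 in ERRα3SA 1, but at most 3.38 in ERRα-/- insulin livers. All 4 of them were DEGs with lower expression in ERRα-/- insulin livers against both ERRα-/- saline (9.14% of all genes) and WT insulin (5.42%). Skeletal muscle markers summed to 55.6 CPM in WT insulin 3 and at most 6.64 elsewhere. Sums of pericentral markers that are not P450 genes ran from 2041 to 4258 CPM, and 3 of the 6 tested were DEGs with higher expression in ERRα-/- against WT under insulin (4.57% of all genes, median log2 fold change 0.48). With insulin in WT 2 were lower and 0 higher (8.91 and 8.34%), with a median of −0.07. Periportal sums ran from 4722 in ERRα3SA 4 to 16610.0 in ERRα-/- saline 3. Of these 7 genes, 2 were DEGs with higher expression in ERRα-/- under insulin (4.57%, median log2 fold change 0.24). With insulin in WT 1 was higher (8.34%) and 2 lower (8.91%), with a median of 0.15. Among cholangiocyte markers 3 of 4 were DEGs with lower expression in ERRα3SA (2.38% of all genes, median −1.02). Kupffer sums ran from 89.1 to 102 CPM in ERRα-/- saline and from 92.6 to 159.7 in WT saline livers, and 2 of 5 genes were DEGs with lower expression (5.3%, median −0.39). Genes with sex-biased expression that are not P450 genes, led by *Mup20*, summed to 1466 to 3488 CPM in ERRα-/- saline, 3580 to 4129 in ERRα-/- insulin and 2275 to 3794 in WT saline livers. DEGs with higher expression were 2 of 4 in ERRα-/- under saline (5.98%, median 0.90). With insulin in ERRα-/- they were 2 of 5 (8.05%), while the median of the 5 was −0.49. In the same comparison 2 of 5 hepatocyte markers were DEGs with higher expression (median 0.20). The part of these markers and libraries in the results was not tested, and in bulk tissue fewer cells of a type and less RNA per cell cannot be told apart.

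The 64 members took a mean of 2.98% of counts in WT saline livers (SD 0.270), 2.92% in WT insulin, 2.95% in ERRα-/- saline (SD 0.418) and 3.24% in ERRα-/- insulin (SD 0.110). In the knock-in experiment they took 2.21% in WT littermates and 2.12% in ERRα3SA. Family 2 held 1.52% of counts in WT saline and 1.71% in WT littermates. Family 4 held 1.11% in WT saline and 1.37% in ERRα-/- insulin, but 0.124% in WT littermates and 0.129% in ERRα3SA. *Cyp2e1*, which oxidises ethanol and paracetamol, took the largest share of member counts in each liver group, 24.8 to 27.1% by group mean. In the insulin experiment it was followed by *Cyp4a14* (21.2 to 24.6%) and *Cyp4a10* (12.5 to 15.1%), and in WT littermates by *Cyp2c29* (9.25%) and *Cyp2d9* (6.84%). The experiments differ in treatment and possibly in fasting and other handling, which cannot be told apart here.

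**Figure D1:**
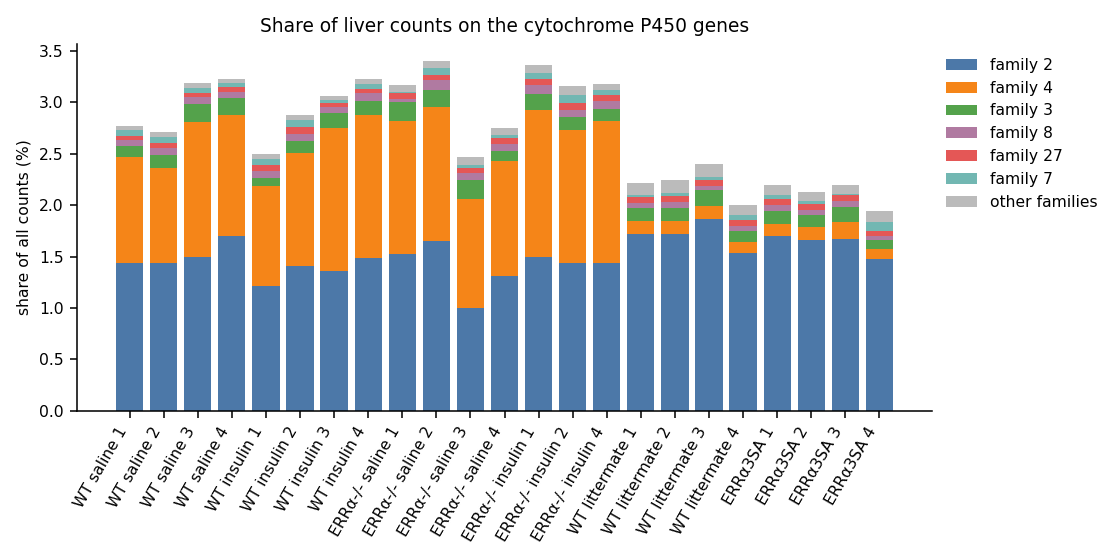
Share of all counts on the P450 members in each of the 23 livers, in percent, stacked by family number. Family 4 is a large part of each bar in the insulin experiment and a thin band in the WT littermate and ERRα3SA livers.

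On a scale of CPM per kb of exon, which adjusts for exon length but not for sequence shared between genes, *Cyp2e1* was the highest member in both experiments. Its mean was 3561 in the insulin experiment and 2554 in the knock-in experiment. In the insulin experiment *Cyp4a14* (2719), *Cyp4a10* (1936), *Cyp2d9* (492), *Cyp2d10* (424), *Cyp2d26* (389), *Cyp8b1* (343) and *Cyp2j5*, an arachidonic acid epoxygenase (242), came next. After *Cyp2e1*, the order among the knock-in livers was *Cyp2c29* (637), *Cyp2d9* (522), *Cyp2d26* (507), *Cyp2f2* (478), *Cyp2d10* (463) and *Cyp1a2* (352). The highest members of other families in the insulin experiment were *Cyp27a1* (241), *Cyp3a25* (164), *Cyp1a2* (137), *Cyp7b1* (126), *Cyp17a1* (61.4), *Cyp39a1* (19.7), *Cyp51* (11.8), *Cyp26b1* (4.60), *Cyp20a1*, an enzyme of unknown substrate (2.95), *Cyp21a1* (0.440) and *Cyp46a1* (0.202). Among knock-in livers *Cyp26a1* (7.77) and not *Cyp26b1* (2.29) led family 26, and *Cyp4f14* (153) led family 4. The spread between livers of a group was moderate for most members, with a median coefficient of variation of 21.5% in WT saline, 28.7% in WT insulin, 34.3% in ERRα-/- saline, 15.1% in ERRα-/- insulin, 18.9% in WT littermates and 25.1% in ERRα3SA.

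**Figure D2:**
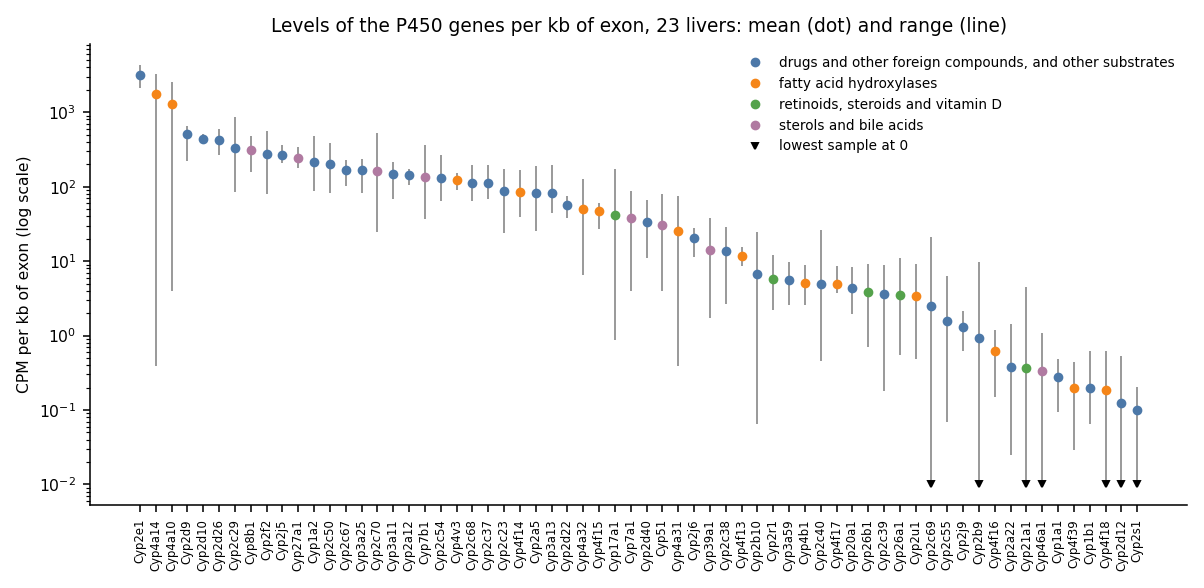
Level of each member in CPM per kb of exon on a log scale, as the mean (dot) and range (line) over 23 livers, coloured by role. *Cyp2e1* leads, and the long lines of *Cyp4a10* and *Cyp4a14* span both experiments.

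Many members lie near related genes, with 6 of subfamily 2d on chromosome 15, 6 of 4f on chromosome 17 and 4 of 4a within 135.4 kb of chromosome 4. Subfamily 2c has 13 members on chromosome 19 and 3a has 4 on chromosome 5, where *Cyp2c23* and *Cyp3a13* lie apart from the others. Related genes share sequence, so reads may be assigned to the wrong copy or left uncounted, and members with much shared sequence may rank too low. For 18 members no 50-base word of their transcripts occurs in another gene, including *Cyp7b1*, *Cyp26a1*, *Cyp17a1*, *Cyp2f2*, *Cyp7a1*, *Cyp8b1*, *Cyp27a1* and *Cyp39a1*. The median over members is 4.19% of words shared, 22 members exceed 10%, and 3 exceed 50%: *Cyp2c40* (60.3%), *Cyp2c69* (54.3%) and *Cyp2c67* (52.8%). *Cyp4a32* shares 43.8% of its words with other genes, 32.6% with *Cyp4a10*, whereas *Cyp4a14* shares 0.235%, *Cyp2u1* 2.60% and *Cyp2e1* 3.87%.

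Beyond the DEG calls, a gene is said to have risen or fallen only when its p adjusted over all genes tested was under 0.05. These p-values measure the spread between samples of 4 or 3 per group. With insulin in WT livers, 5 of the 62 members tested were DEGs with higher expression, beside 8.34% of all 13463 genes tested, and 7 were lower, beside 8.91%. Only *Cyp26a1* rose and *Cyp2u1* fell, 2 of 62 beside 3.16%, and the median log2 fold change was −0.06 over members and 0.00 over all genes. DESeq2 gave 3 members after adjustment, beside 6.95%. With insulin in ERRα-/- livers, 9 of 63 members were DEGs with higher expression, beside 8.05% of 13684 genes, and 3 lower, beside 9.14%. *Cyp7b1*, *Cyp4a32* and *Cyp2c39* rose and *Cyp2u1* fell, 4 of 63 beside 2.91%, with medians of 0.12 over members and −0.02 over all genes. DESeq2 gave 9 members after adjustment, beside 7.22%.

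In ERRα-/- against WT under saline, 4 of 63 members were DEGs with higher expression, beside 5.98% of 13481 genes, and 8 lower, beside 5.3%, with medians of −0.08 and 0.00. By edgeR 0 members had an adjusted p under 0.05, beside 0.0816% of genes. At an unadjusted p under 0.05 there were 12, beside 12.1%, and DESeq2 gave 3, beside 1.84%. In ERRα-/- against WT under insulin, 10 of 61 members were DEGs with higher expression, beside 4.57% of 13665 genes, and 4 lower, beside 5.42%, with medians of 0.13 and −0.02. Here 0 members passed by edgeR after adjustment, beside 0.0585% of genes. At an unadjusted p under 0.05 there were 14, beside 10%, and DESeq2 gave 1, beside 1.76%. The interaction, which is the log2 change with insulin in ERRα-/- minus that in WT, gave 8 of 64 members as DEGs with a higher value, beside 4.04% of 14670 genes, and 2 lower, beside 4.75%. Its medians were 0.14 and −0.02, with 0 members after adjustment by edgeR beside 0% of genes. Unadjusted p was under 0.05 for 10, beside 8.79%, and 0 passed by DESeq2, beside 0.136%. In ERRα3SA against WT littermates, 3 of 63 members were DEGs with higher expression, beside 2.5% of 13339 genes, and 3 lower, beside 2.38%. The medians were 0.02 and 0.00, and 0 members passed by edgeR after adjustment beside 0% of genes. Unadjusted p was under 0.05 for 6, beside 7.47%, and 0 passed by DESeq2, beside 0.315%. The comparisons within the insulin experiment share groups, so their values are set side by side and not counted as separate support.

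Leaving out the libraries that stood apart changed these counts, given here with the shares of all genes in brackets. Without ERRα-/- saline 1, 3 or 4 the comparison of ERRα-/- with WT under saline had 3 members higher and 7 lower (4.94 and 4.37%), 3 and 10 (5.22 and 4.88%), or 4 and 6 (5.05 and 4.89%), and without WT saline 3 it had 5 and 8 (5.19 and 5.03%). Insulin in ERRα-/- livers gave 12 higher and 1 lower without ERRα-/- saline 1 (8.46 and 9.33%), 9 and 3 without replicate 3 (8.99 and 9.48%), and 7 and 3 without replicate 4 (6.95 and 7.67%). After adjustment 2 (2.85%), 5 (4.53%) and 0 (1.32%) were left of them. The interaction gave 12 higher and 3 lower (3.83 and 4.52%), 8 and 3 (3.94 and 4.56%), or 4 and 2 (3.18 and 3.52%) without ERRα-/- saline 1, 3 or 4, and 6 and 2 without WT saline 3 (4.02 and 4.59%). Insulin in WT livers gave 3 higher and 5 lower members without WT saline 3 (6.88 and 7.36%), with 0 after adjustment (1.35%). ERRα3SA gave 1 higher and 3 lower without ERRα3SA 3 (3.02 and 2.28%), and 6 higher and 3 lower without ERRα3SA 4 (2.86 and 3.74%).

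Without WT insulin 1 or 2, insulin in WT livers gave 6 higher and 6 lower (8.14 and 8.86%) or 2 and 5 (7.72 and 7.86%), with 2 after adjustment each time (2.97% and 2.66%). For ERRα-/- against WT under insulin these were 9 and 4 (5.38 and 5.79%), or 13 and 5 (5.99 and 7.19%) with 0 and 1 after adjustment (0.0373% and 0.356%), and without ERRα-/- insulin 1 they were 4 and 2 (3.15 and 4.12%). Leaving out either of these WT insulin livers gave 6 higher and 2 lower in the interaction (4.46 and 5.02% and 3.76 and 4.59%). Without ERRα-/- saline 2 there were 13 higher and 3 lower with insulin in ERRα-/- (8.91 and 8.7%), 6 and 12 in ERRα-/- against WT under saline (7.29 and 7.1%), and 9 and 2 in the interaction (4.64 and 5.26%). In the first 2 of these, 4 (3.11%) and 3 (0.341%) passed adjustment. The sum of higher and lower DEGs moved by over 1.5 times in these other fits. With insulin in WT there were 3 and 3 without WT saline 4 (6.55 and 6.53%). In the interaction there were 4 and 2 without that liver (3.72 and 4.47%) or 3 and 2 without ERRα-/- insulin 2 (2.56 and 3.26%). In ERRα3SA there were 1 and 2 without WT littermate 2 (2.27 and 1.91%) or ERRα3SA 2 (2.36 and 2.57%). Elsewhere a single direction moved by over 1.5 times while the sum did not. Such fits included the interaction without WT saline 2, with 5 and 4 (3.06 and 4.1%), or without ERRα-/- insulin 1, with 5 and 2 (3.3 and 4.1%). ERRα-/- against WT under insulin had 6 and 6 without ERRα-/- insulin 2 (2.35 and 3.43%). ERRα3SA had 1 and 4 without WT littermate 1 (2.1 and 2.3%).

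**Figure D3:**
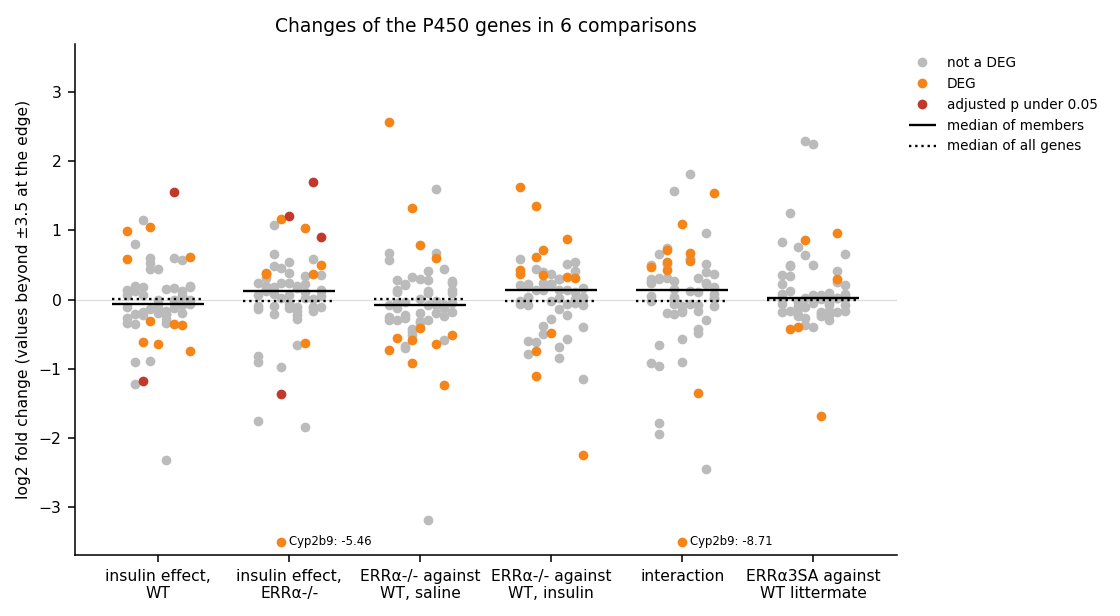
Log2 fold change of each tested member (dots) in each comparison, with DEGs in orange and members with an adjusted p under 0.05 in red. Solid and dotted lines mark the medians of the members and of all genes, which lie near 0, and *Cyp2b9* lies far below the rest in ERRα-/- with insulin and in the interaction.

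Among the 8 members that act on sterols and bile acids, DEGs occurred with insulin in ERRα-/- livers (2 higher), in ERRα-/- against WT under saline (1 higher, 1 lower) and under insulin (2 higher, 1 lower), and in the interaction (1 higher). DEGs higher and lower over all genes were 8.34 and 8.91% with insulin in WT, 8.05 and 9.14% with insulin in ERRα-/-, 5.98 and 5.3% and 4.57 and 5.42% in ERRα-/- under saline and insulin, 4.04 and 4.75% in the interaction and 2.5 and 2.38% in ERRα3SA. Their median log2 fold changes were 0.18 with insulin in WT, 0.36 with insulin in ERRα-/-, 0.04 and 0.31 for ERRα-/- against WT under saline and insulin, 0.10 for the interaction and 0.07 for ERRα3SA, beside 0.00, −0.02, 0.00, −0.02, −0.02 and 0.00 over all genes. *Cyp7b1*, an oxysterol hydroxylase of the alternative route to bile acids, measured 78.8, 222, 105 and 79.6 CPM in ERRα-/- saline livers and 247, 561 and 386 in ERRα-/- insulin livers. Each insulin liver was above each saline liver, and the gene rose with insulin (log2 fold change 1.71, SE 0.37, adjusted p = 0.0367). With single livers left out the log2 fold change ran from 1.38 to 2.18. The adjusted p was 0.0709 without ERRα-/- saline 1, 0.0904 without ERRα-/- saline 4, 0.0578 without ERRα-/- insulin 1, 0.193 without ERRα-/- insulin 2 and 0.119 without ERRα-/- insulin 4, and ran from 0.00222 to 0.193 over all alternatives. WT livers held 381, 347, 222 and 189 CPM with saline and 492, 448, 169.8 and 170.1 with insulin, groups that overlap throughout (log2 fold change 0.17, SE 0.37, adjusted p = 0.862). Against WT under saline, 3 of 4 ERRα-/- livers were below every WT liver and ERRα-/- saline 2 was within their range (log2 fold change −1.23, SE 0.34, adjusted p = 0.214, a DEG with lower expression). The interaction was 1.54, SE 0.58, adjusted p = 0.506, a DEG that was lost without ERRα-/- insulin 2 (1.21). WT littermates held 189.9, 306, 252 and 359.8 CPM of *Cyp7b1* and ERRα3SA livers 302, 240.2, 139.8 and 793, where ERRα3SA 4 was highest and ERRα3SA 3 lowest.

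*Cyp7a1*, the rate-limiting enzyme of bile acid synthesis, stood at 195, 251, 241 and 204 CPM in WT saline and 137, 252, 54.9 and 287 in WT insulin livers. ERRα-/- livers held 16.4, 367, 248 and 251 with saline and 342, 214 and 161 with insulin. It was not a DEG in any comparison, and the low value of ERRα-/- saline 1 set the spread of its group. Without that library the change in ERRα-/- livers under saline moved from −0.01 to 0.37 (log2), a DEG with higher expression. *Cyp8b1*, which directs synthesis toward cholic acid, held 716, 658, 562 and 668 CPM in WT insulin and 931, 726 and 805 in ERRα-/- insulin livers. The 3 ERRα-/- livers were above the 4 WT livers (log2 fold change 0.32, SE 0.14, adjusted p = 0.475, a DEG), and the call was lost without ERRα-/- insulin 1 (0.23), ERRα-/- insulin 4 (0.35), WT insulin 3 (0.26) and WT insulin 4 (0.33), and with the replicate block (0.25) and all groups in the fit (0.33). *Cyp27a1*, a mitochondrial enzyme that oxidises the sterol side chain, measured 592, 479, 488 and 508 CPM in ERRα-/- saline and 651, 749 and 616 in ERRα-/- insulin livers. All insulin values exceeded the saline values (log2 fold change 0.38, SE 0.13, adjusted p = 0.147, a DEG with higher expression, lost without ERRα-/- insulin 2 (0.29)).

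*Cyp39a1*, another oxysterol hydroxylase, held 28.9, 40.9, 59.6 and 25.98 CPM in WT saline and 78.9, 42.8, 83.5 and 63.7 in ERRα-/- saline livers. With insulin it held 34.3, 68.4, 59.3 and 49.6 in WT and 94.0, 115 and 54.8 in ERRα-/- livers. ERRα-/- livers tended to higher values with overlap in both settings, and the gene was a DEG under saline (0.79, SE 0.27, adjusted p = 0.277) and under insulin (0.72, SE 0.27, adjusted p = 0.393), the latter lost without ERRα-/- insulin 1 (0.68) and ERRα-/- insulin 2 (0.48). *Cyp46a1*, a cholesterol hydroxylase best known from neurons, was near the detection limit, with 0.824, 0.340, 1.03 and 1.42 CPM in WT insulin and 0.0520, 0.220 and 0.298 in ERRα-/- insulin livers. The ERRα-/- livers were all below the WT livers (log2 fold change −2.24, SE 0.78, adjusted p = 0.353, a DEG with lower expression, lost without ERRα-/- insulin 1 (−1.80), and with all groups in the fit (−2.24)). *Cyp51*, the lanosterol demethylase of cholesterol synthesis, varied within groups, with 87.5, 24.8, 59.7 and 54.5 CPM in WT saline and 17.7, 51.1, 24.2 and 149 in ERRα-/- saline livers. WT littermates held 301, 278, 294 and 243 CPM and ERRα3SA livers 284, 255, 276 and 355, and it was not a DEG in any comparison.

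**Figure D4:**
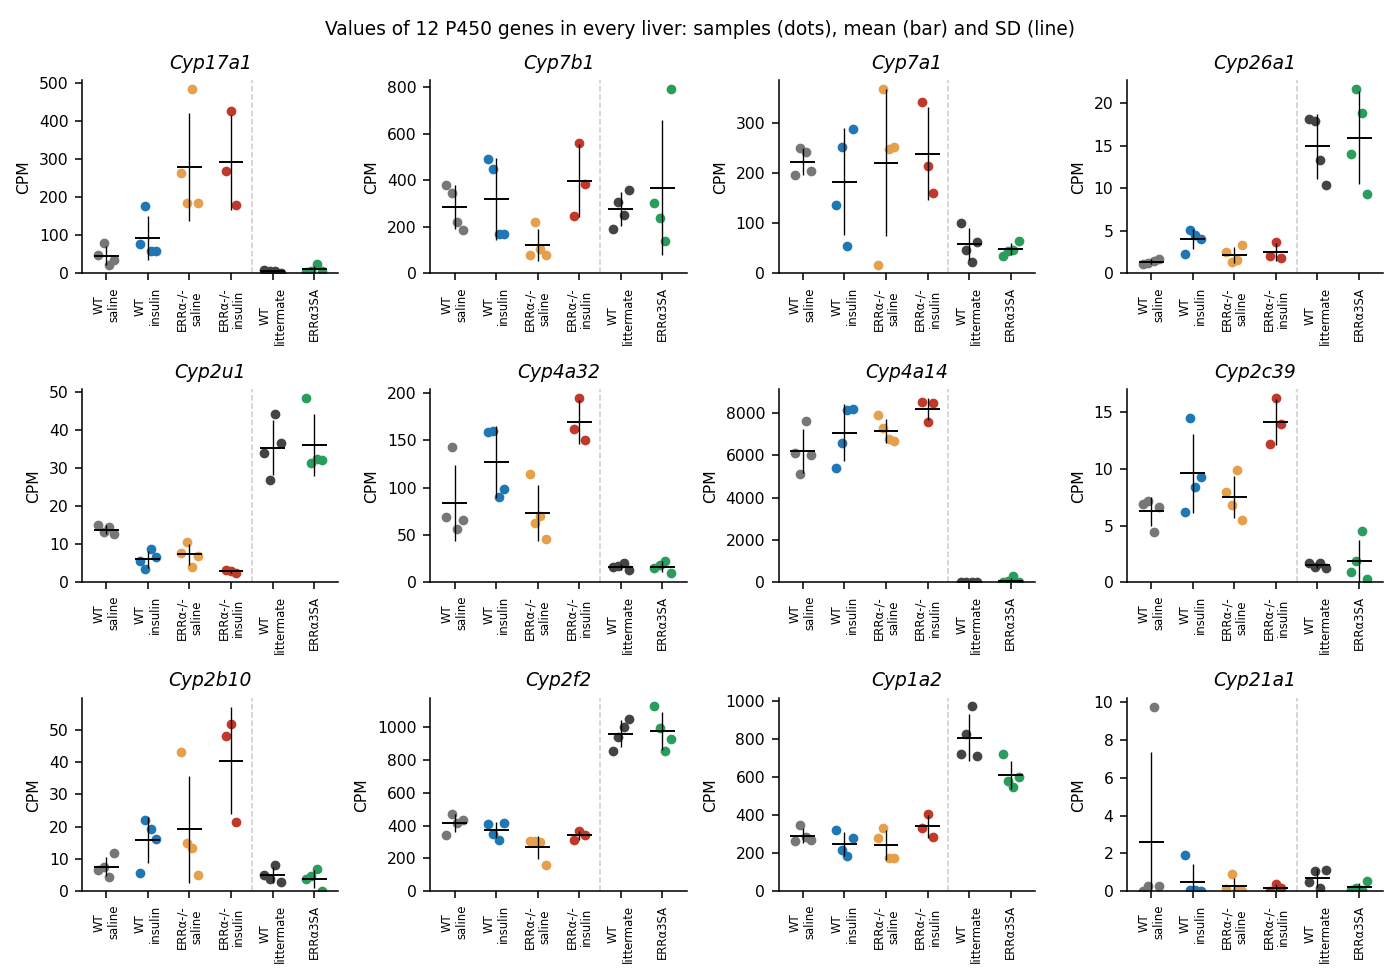
CPM of 12 members in each liver (dots) by group, with the mean (bar) and SD (line). *Cyp17a1* separates ERRα-/- from WT livers, *Cyp2u1* is lower with insulin in both genotypes, and *Cyp21a1* is carried by WT saline 3.

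The retinoid, steroid and vitamin D group has 5 members, of which 4 were tested in the 2-group comparisons with ERRα-/- insulin livers. *Cyp26a1*, the main enzyme that clears retinoic acid in liver, measured 1.09, 1.21, 1.44 and 1.73 CPM in WT saline and 2.34, 5.11, 4.57 and 4.08 in WT insulin livers. Each WT insulin liver was above each WT saline liver, and the gene rose with insulin (log2 fold change 1.55, SE 0.31, adjusted p = 0.0227, higher in 4 of 4). The adjusted p was 0.0752 without WT saline 1, 0.0594 without WT saline 2, 0.0637 without WT saline 3, 0.0580 without WT saline 4, 0.0532 without WT insulin 3 and 0.0677 without WT insulin 4, and ran from 1.60e-04 to 0.0752 over all alternatives. ERRα-/- livers held 2.55, 1.31, 1.55 and 3.37 CPM with saline and 2.08, 3.70 and 1.76 with insulin, and these groups overlap (log2 fold change 0.20, SE 0.39, adjusted p = 0.852). The interaction was a DEG with a lower value (−1.35, SE 0.51, adjusted p = 0.506), so a difference in the insulin response between genotypes did not pass adjustment. WT littermates held 18.1, 17.9, 13.3 and 10.4 CPM and ERRα3SA livers 14.0, 21.6, 18.8 and 9.30, with overlap (log2 fold change 0.09, SE 0.26, adjusted p = 0.949). Its promoter is shown because the gene rose with insulin in WT and its start region is a textbook case of a retinoic acid response element. The sequence is from RefSeq, build GRCm38.p6, chr19:37697558-37697857, plus strand, 250 bases before to 50 after the start. Capitals mark a direct repeat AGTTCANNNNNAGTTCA, searched on both strands, found here on the opposite strand beginning at position −32 from the start.
Cyp26a1: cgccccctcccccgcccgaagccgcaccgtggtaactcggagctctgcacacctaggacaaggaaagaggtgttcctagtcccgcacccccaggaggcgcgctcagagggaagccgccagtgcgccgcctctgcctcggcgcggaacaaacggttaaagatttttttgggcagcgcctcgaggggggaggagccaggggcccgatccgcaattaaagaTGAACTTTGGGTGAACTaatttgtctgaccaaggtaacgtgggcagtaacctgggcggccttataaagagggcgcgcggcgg
This repeat was chosen after the data were seen and occurs in 8 of 32851 promoter windows (0.0244%), with no overlap here with the other motifs searched. Because this start region is a textbook case, finding the repeat here tests nothing, and the share is descriptive only. A match describes letters in the window and not a site in use.

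*Cyp26b1*, another retinoic acid hydroxylase, held 24.1, 23.1, 8.03 and 23.4 CPM in ERRα-/- saline and 39.5, 33.1 and 48.2 in ERRα-/- insulin livers. WT livers held 18.4, 22.8, 14.4 and 27.3 with saline and 8.87, 16.4, 39.1 and 22.7 with insulin. Each ERRα-/- insulin liver was above each ERRα-/- saline liver, a DEG with higher expression (1.04, SE 0.31, adjusted p = 0.105). Leaving out ERRα-/- saline 3, the lowest, gave a log2 fold change of 0.78 and an adjusted p of 0.0159 (range 0.0102 to 0.295 over all alternatives). Against WT insulin it was a DEG (0.88, SE 0.38, adjusted p = 0.475) that was lost without ERRα-/- insulin 1 (0.89), ERRα-/- insulin 2 (1.00), ERRα-/- insulin 4 (0.74), WT insulin 1 (0.62), WT insulin 2 (0.77) and WT insulin 4 (0.90), and it was 1.40 with the replicate block and 1.33 without WT insulin 3. In the knock-in experiment it measured 9.54, 15.3, 3.75 and 4.50 CPM in WT littermates and 12.8, 19.3, 17.5 and 15.5 in ERRα3SA livers. The groups overlap through WT littermate 2, and the DEG call (0.97, SE 0.38, adjusted p = 0.639) was lost without WT littermate 3 (0.73), WT littermate 4 (0.77), ERRα3SA 2 (0.88) and ERRα3SA 3 (0.93).

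*Cyp17a1*, a hydroxylase and lyase of steroid hormone synthesis, had the highest log2 fold change of the members tested in both genotype comparisons. It measured 49.3, 80.2, 22.6 and 35.6 CPM in WT saline and 78.5, 177, 57.8 and 58.2 in WT insulin livers. ERRα-/- livers held 263, 184, 483 and 186 CPM with saline and 269.5, 426 and 179 with insulin. All 7 ERRα-/- livers were above all 8 WT livers, and the log2 fold change was 2.57, SE 0.41, adjusted p = 0.0540 under saline and 1.64, SE 0.41, adjusted p = 0.193 under insulin, both DEGs with higher expression. Under saline the adjusted p lay just above 0.05, was 0.0323 without ERRα-/- saline 2 and 0.0301 without WT saline 2, and ran from 4.21e-04 to 0.199 over all alternatives. With insulin in WT it was a DEG (0.99, SE 0.42, adjusted p = 0.254), lost without WT saline 1 (1.01), WT saline 3 (0.76), WT saline 4 (0.88) and WT insulin 2 (0.47), and with DESeq2 (0.99). In the knock-in experiment it held 9.90, 5.12, 6.12 and 2.38 CPM in WT littermates and 4.21, 6.36, 24.9 and 7.0 in ERRα3SA livers, with ERRα3SA 3 highest and the rest overlapping. *Cyp2r1*, a vitamin D hydroxylase, measured 9.12, 7.78, 9.32 and 9.18 CPM in WT saline and 5.93, 6.84, 4.70 and 6.58 in ERRα-/- saline livers. All ERRα-/- values were below the WT values (log2 fold change −0.56, SE 0.16, adjusted p = 0.228, a DEG with lower expression), and its interaction, 0.54, SE 0.23, was a DEG lost without ERRα-/- saline 3 (0.44), ERRα-/- insulin 1 (0.53), ERRα-/- insulin 2 (0.49), WT saline 1 (0.52), WT saline 3 (0.52), WT saline 4 (0.52), WT insulin 1 (0.50) and WT insulin 3 (0.47), and with no filter (0.54) and the replicate block (0.52).

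*Cyp21a1*, a steroid hydroxylase of the adrenal cortex, measured 0, 0.302, 9.71 and 0.301 CPM in WT saline and 1.91, 0.0851, 0.0717 and 0 in WT insulin livers, with WT saline 3 and WT insulin 1 set apart. In ERRα-/- livers it measured 0.131, 0.921, 0.0870 and 0 with saline and 0, 0.412 and 0.190 with insulin. The same libraries carried the adrenal cortex genes listed above, whose part was not tested. In the knock-in experiment it held 0.483, 1.09, 0.163 and 1.10 CPM in WT littermates and 0.0895, 0.179, 0.0466 and 0.553 in ERRα3SA livers, overlapping groups and a DEG with lower expression (−1.68, SE 0.73, adjusted p = 0.654), lost without WT littermate 2 (−1.39), WT littermate 4 (−1.40), ERRα3SA 1 (−1.42), ERRα3SA 2 (−1.60) and ERRα3SA 3 (−1.36). Without ERRα3SA 4 the value was −2.68. Over the group, DEGs numbered 2 higher with insulin in WT (all genes 8.34 and 8.91%), 1 higher with insulin in ERRα-/- (8.05 and 9.14%), 1 higher and 1 lower in ERRα-/- against WT under saline (5.98 and 5.3%), 2 higher under insulin (4.57 and 5.42%), and 1 in each direction for both the interaction (4.04 and 4.75%) and ERRα3SA (2.5 and 2.38%). Its medians were 0.07, 0.19, −0.08, 0.43, 0.54 and 0.09 in that order, beside 0.00, −0.02, 0.00, −0.02, −0.02 and 0.00 over all genes.

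The 14 fatty acid hydroxylases had 1 DEG higher and 3 lower with insulin in WT (all genes 8.34 and 8.91%), 4 higher and 1 lower with insulin in ERRα-/- (8.05 and 9.14%), 2 lower in ERRα-/- against WT under saline (5.98 and 5.3%), and 3 higher and 2 lower under insulin (4.57 and 5.42%). The interaction had 2 higher (4.04 and 4.75%) and ERRα3SA 1 higher (2.5 and 2.38%), with 13 tested in ERRα3SA and under insulin. Their medians were −0.03, 0.24, −0.19, 0.14, 0.27 and 0.02 in that order, beside 0.00, −0.02, 0.00, −0.02, −0.02 and 0.00 over all genes. *Cyp2u1*, a hydroxylase of long-chain fatty acids, measured 15.1, 13.1, 14.5 and 12.7 CPM in WT saline and 5.50, 3.49, 8.82 and 6.62 in WT insulin livers. The ERRα-/- livers had 7.69, 10.7, 4.13 and 6.98 CPM with saline and 3.15, 2.94 and 2.52 with insulin. In each genotype, each insulin liver was below each saline liver. It fell with insulin in WT (log2 fold change −1.18, SE 0.24, adjusted p = 0.0258), where the adjusted p was 0.0776 without WT saline 1, 0.0530 without WT saline 2, 0.0767 without WT saline 3, 0.0733 without WT saline 4, 0.0532 without WT insulin 1 and 0.0677 without WT insulin 4, and ran from 1.99e-04 to 0.0776 over all alternatives. It also fell with insulin in ERRα-/- (log2 fold change −1.36, SE 0.30, adjusted p = 0.0367), where the adjusted p was 0.0610 without ERRα-/- saline 1, 0.0601 without ERRα-/- saline 2, 0.0734 without ERRα-/- saline 4, 0.109 without ERRα-/- insulin 1, 0.158 without ERRα-/- insulin 2 and 0.158 without ERRα-/- insulin 4, and ran from 5.19e-04 to 0.158. ERRα-/- livers were below WT livers without overlap under saline (−0.91, SE 0.23, adjusted p = 0.193) and under insulin (−1.10, SE 0.31, adjusted p = 0.255), both DEGs with lower expression. The interaction was −0.18, SE 0.39, and *Cyp2u1* stood at 34.1, 26.8, 44.3 and 36.6 CPM in WT littermates and 48.5, 31.3, 32.5 and 32.2 in ERRα3SA livers (log2 fold change 0.03, SE 0.18, adjusted p = 0.980).

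The Cyp4a genes are known targets of the fatty acid sensor PPARα, and their enzymes hydroxylate the end of the fatty acid chain. *Cyp4a32* measured 114, 62.6, 69.6 and 45.3 CPM in ERRα-/- saline and 162, 195 and 150.1 in ERRα-/- insulin livers. No value overlapped, and it rose with insulin (log2 fold change 1.21, SE 0.25, adjusted p = 0.0313). The adjusted p was 0.0619 without ERRα-/- saline 2, 0.0506 without ERRα-/- saline 4, 0.0929 without ERRα-/- insulin 1, 0.161 without ERRα-/- insulin 2 and 0.0973 without ERRα-/- insulin 4, and ran from 6.76e-05 to 0.161 over all alternatives. In WT it held 69.5, 143, 56.4 and 65.5 CPM with saline and 159, 160.2, 90.4 and 98.8 with insulin, overlapping through WT saline 2 (log2 fold change 0.61, SE 0.30, adjusted p = 0.320). *Cyp4a31* held 75.4, 101, 48.2 and 39.4 CPM in ERRα-/- saline and 131, 189 and 124 in ERRα-/- insulin livers, against 84.3, 107, 108 and 66.7 and 112, 74.9, 96.9 and 101 in WT. The ERRα-/- insulin livers were the highest of the 15, with DEG calls for insulin in ERRα-/- (1.16, SE 0.29, adjusted p = 0.0597), ERRα-/- against WT under insulin (0.61, SE 0.18, adjusted p = 0.275, with 0.40 without ERRα-/- insulin 2) and the interaction (1.09, SE 0.36, adjusted p = 0.461). The first of these had an adjusted p of 0.0199 without ERRα-/- saline 2 and a range of 0.00660 to 0.266 over all alternatives.

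*Cyp4a10* measured 3269, 3355, 3630.0 and 4391 CPM in WT saline and 3485, 3653, 3889 and 4249 in WT insulin livers. Values in ERRα-/- livers were 4846, 4195, 3509.7 and 3304 with saline and 5421, 5237 and 4802 with insulin. ERRα-/- insulin livers were above all WT insulin livers (0.42, SE 0.12, adjusted p = 0.260, a DEG) and overlapped with ERRα-/- saline livers only through ERRα-/- saline 1 (0.37, SE 0.16, adjusted p = 0.238, a DEG lost without ERRα-/- saline 3 (0.32), ERRα-/- saline 4 (0.29), ERRα-/- insulin 1 (0.34), ERRα-/- insulin 2 (0.36) and ERRα-/- insulin 4 (0.43)). In the knock-in experiment it spread widely, with 137, 73.4, 155 and 17.3 CPM in WT littermates and 46.7, 187, 405 and 8.24 in ERRα3SA livers. *Cyp4a14* stood at 6078, 5091, 7596 and 5999 CPM in WT saline and 5394, 6569.7, 8105 and 8186 in WT insulin livers. It held 7905, 7275, 6753 and 6641 in ERRα-/- saline and 8479.7, 7575 and 8434 in ERRα-/- insulin livers, and was not a DEG in any comparison. WT littermates held 28.5, 16.6, 23.7 and 2.08 CPM and ERRα3SA livers 5.73, 61.7, 283 and 1.01 (log2 fold change 2.30, SE 1.28, adjusted p = 0.726). ERRα3SA 3 and 4 are its extremes. The log2 fold change was 0.36 without ERRα3SA 3, and 2.71 without ERRα3SA 4, where it became a DEG.

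*Cyp4f15* and *Cyp4f17* belong to a subfamily that hydroxylates leukotrienes and long-chain fatty acids. *Cyp4f15* measured 95.9, 114, 106 and 124 CPM in WT saline and 83.8, 98.4, 78.7 and 78.9 in WT insulin livers, overlapping through WT saline 1 and WT insulin 2 (log2 fold change −0.37, SE 0.13, adjusted p = 0.153, a DEG with lower expression). In ERRα-/- insulin livers it held 101, 118 and 101 CPM, above all WT insulin livers (0.32, SE 0.13, adjusted p = 0.458), a DEG lost without ERRα-/- insulin 1 (0.36), ERRα-/- insulin 2 (0.24), WT insulin 1 (0.31), WT insulin 3 (0.29) and WT insulin 4 (0.28), and with the replicate block (0.28) and all groups in the fit (0.33). *Cyp4f17* held 12.1, 11.8, 14.0 and 15.8 and 16.6, 13.7, 27.6 and 22.8 CPM in the same groups, a DEG with higher expression (0.59, SE 0.21, adjusted p = 0.178) lost without WT insulin 3 (0.40). It was also a DEG with insulin in ERRα-/- livers, from 16.2, 12.9, 16.9 and 13.3 to 16.7, 22.8 and 19.2 CPM (0.39, SE 0.15, adjusted p = 0.207), lost without ERRα-/- saline 2 (0.34), ERRα-/- saline 4 (0.34), ERRα-/- insulin 2 (0.27) and ERRα-/- insulin 4 (0.41), and with all groups in the fit (0.40). *Cyp4v3*, another fatty acid hydroxylase, stood at 519, 526, 573 and 536 CPM in WT saline and 466, 355, 464 and 447 in WT insulin livers. With ERRα absent it measured 396, 510.1, 369 and 347 with saline and 498, 492 and 449 with insulin. WT saline livers were the highest group without overlap, and *Cyp4v3* was a DEG with lower expression with insulin in WT (−0.31, SE 0.12, adjusted p = 0.217, lost without WT saline 3 (−0.28), WT saline 4 (−0.32) and WT insulin 2 (−0.23)) and in ERRα-/- under saline (−0.41, SE 0.13, adjusted p = 0.252), and a DEG with a higher value in the interaction (0.56, SE 0.19, adjusted p = 0.473).

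The largest role group, 37 members that act on drugs, other foreign compounds or other substrates, had 2 DEGs higher and 4 lower of 35 tested with insulin in WT (all genes 8.34 and 8.91%), and 2 and 2 of 37 with insulin in ERRα-/- (8.05 and 9.14%). ERRα-/- against WT had 2 higher and 4 lower of 36 under saline (5.98 and 5.3%) and 3 higher and 1 lower of 36 under insulin (4.57 and 5.42%). The interaction had 4 higher and 1 lower (4.04 and 4.75%) and ERRα3SA 1 higher and 2 lower (2.5 and 2.38%), each of 37. Medians were −0.13, 0.01, −0.06, 0.07, 0.11 and 0.00 in that order, beside 0.00, −0.02, 0.00, −0.02, −0.02 and 0.00 over all genes. *Cyp2c39*, which also hydroxylates retinoic acid, measured 7.98, 6.81, 9.92 and 5.50 CPM in ERRα-/- saline and 12.2, 16.2 and 14.0 in ERRα-/- insulin livers. No value overlapped and it rose with insulin (log2 fold change 0.90, SE 0.20, adjusted p = 0.0426). The adjusted p was 0.0629 without ERRα-/- saline 1, 0.0762 without ERRα-/- saline 2, 0.0823 without ERRα-/- saline 4, 0.0889 without ERRα-/- insulin 1, 0.210 without ERRα-/- insulin 2 and 0.136 without ERRα-/- insulin 4, and ran from 0.00236 to 0.210 over all alternatives. WT livers held 6.89, 7.18, 4.41 and 6.68 CPM with saline and 6.24, 14.5, 8.42 and 9.34 with insulin, overlapping groups and a DEG with higher expression (0.62, SE 0.26, adjusted p = 0.252) that was lost without WT saline 1 (0.66), WT saline 3 (0.48), WT saline 4 (0.64), WT insulin 2 (0.35) and WT insulin 4 (0.63).

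*Cyp2b10*, a classic target of the receptor CAR, measured 6.63, 7.56, 4.55 and 11.8 CPM in WT saline and 5.74, 22.1, 19.2 and 16.1 in WT insulin livers. In the ERRα-/- groups it was 43.1, 14.9, 13.4 and 5.19 with saline and 48.1, 51.8 and 21.5 with insulin. It was a DEG with higher expression with insulin in WT (1.05, SE 0.38, adjusted p = 0.185, lost without WT saline 3 (0.86) and WT insulin 2 (0.84), and with all groups in the fit (1.05)). It was also higher in ERRα-/- under saline (1.33, SE 0.52, adjusted p = 0.329, lost without ERRα-/- saline 1 (0.55), WT saline 1 (1.27), WT saline 2 (1.32) and WT saline 3 (1.14), and with the replicate block (1.06)) and under insulin (1.35, SE 0.41, adjusted p = 0.280). Groups overlapped each time, through WT insulin 1, ERRα-/- saline 4 and ERRα-/- insulin 4. Without ERRα-/- saline 1 it passed adjustment for insulin in ERRα-/- livers, with a log2 fold change of 1.85 and an adjusted p of 0.0441 (range 0.0441 to 0.663 over all alternatives), whereas with all livers these were 1.08, SE 0.55. *Cyp2b9*, a female-predominant gene, held 0, 0, 0.0229 and 0.0925 CPM in WT saline and 0, 0.0567, 0.263 and 0.925 in WT insulin livers. Among ERRα-/- livers it reached 18.4, 0, 3.85 and 1.71 with saline and 0.260, 0.0549 and 0.0814 with insulin, where ERRα-/- saline 1 carried most of the signal and ERRα-/- saline 2 had none. The fitted values for insulin in ERRα-/- (−5.46, SE 1.57, adjusted p = 0.0943) and for the interaction (−8.71, SE 2.23, adjusted p = 0.422) were DEGs with few counts in the other groups and a wide spread among ERRα-/- saline livers. The interaction was −7.03 without ERRα-/- saline 1.

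*Cyp1a2*, which oxidises caffeine and aromatic amines, stood at 718, 822, 972 and 712 CPM in WT littermates and 719, 577, 548 and 597 in ERRα3SA livers. The groups overlap through ERRα3SA 1, and it was a DEG with lower expression (−0.40, SE 0.13, adjusted p = 0.592). In the insulin experiment it held 266, 349, 284 and 267 CPM in WT saline, 321, 216, 183 and 278 in WT insulin, 281, 334, 177 and 174 in ERRα-/- saline and 333, 403 and 284 in ERRα-/- insulin livers. Its interaction was a DEG (0.72, SE 0.31, adjusted p = 0.546), lost without ERRα-/- saline 3 (0.60), ERRα-/- saline 4 (0.59), ERRα-/- insulin 2 (0.58), WT saline 2 (0.62), WT insulin 2 (0.66) and WT insulin 3 (0.60). *Cyp2e1* stood at 7830.1, 8426, 6953 and 8343 CPM in WT saline and 6471, 8517, 6362 and 7160.1 in WT insulin livers. It held 9339, 8508, 4827 and 7263 in ERRα-/- saline and 8664, 8528 and 8066 in ERRα-/- insulin livers, lowest in ERRα-/- saline 3, and was not a DEG in any comparison. *Cyp3a11*, which handles a broad range of drugs, measured 429.7, 579, 1030.3 and 924 CPM in WT saline and 1104, 1006, 1025 and 471 in ERRα-/- saline livers and was not a DEG either. *Cyp3a13* of the same subfamily held 445, 219, 569 and 347 CPM in ERRα-/- saline and 254, 237 and 274 in ERRα-/- insulin livers, against 284, 322, 199.5 and 231 in WT saline. It was a DEG with lower expression with insulin in ERRα-/- (−0.63, SE 0.26, adjusted p = 0.230, lost without ERRα-/- saline 1 (−0.57), ERRα-/- saline 3 (−0.40), ERRα-/- insulin 1 (−0.63), ERRα-/- insulin 2 (−0.58) and ERRα-/- insulin 4 (−0.68), and with the replicate block (−0.35)) and higher in ERRα-/- under saline (0.61, SE 0.25, adjusted p = 0.362, lost without ERRα-/- saline 1 (0.55), ERRα-/- saline 3 (0.38), WT saline 3 (0.50) and WT saline 4 (0.56), and with the replicate block (0.55)). In ERRα3SA livers it held 156, 165, 164 and 231 CPM against 153, 132, 152 and 146 in WT littermates, no overlap and a DEG (0.30, SE 0.13, adjusted p = 0.651) lost without WT littermate 1 (0.32), WT littermate 2 (0.25), WT littermate 3 (0.32), WT littermate 4 (0.30) and ERRα3SA 4 (0.15), and with all groups in the fit (0.29).

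*Cyp2f2*, known for oxidising naphthalene, measured 344, 472, 414 and 437 CPM in WT saline and 305, 308, 297 and 161 in ERRα-/- saline livers. All ERRα-/- saline livers were below all WT saline livers, with ERRα-/- saline 4 far lowest, and it was a DEG with lower expression (log2 fold change −0.64, SE 0.19, adjusted p = 0.239). With insulin it held 408, 349.7, 312 and 414 CPM in WT and 313, 367 and 342 in ERRα-/- livers, which overlap (log2 fold change −0.13, SE 0.14, adjusted p = 0.811). *Cyp2c29* held 467, 327, 639 and 626 CPM in WT saline and 574, 792, 499.8 and 387 in ERRα-/- saline livers, and was not a DEG in any comparison. These promoters are shown because, of the 50 members matched in the RefSeq promoter table, they alone hold the element TNAAGGTCA of estrogen-related receptors, the family of the protein removed in ERRα-/- mice. Sequences are from RefSeq, build GRCm38.p6, chr7:27119705-27120004 for *Cyp2f2* and chr19:39286835-39287134 for *Cyp2c29*, both plus strand. Capitals mark the matches, which begin at −224 and −157 from the start.
Cyp2f2: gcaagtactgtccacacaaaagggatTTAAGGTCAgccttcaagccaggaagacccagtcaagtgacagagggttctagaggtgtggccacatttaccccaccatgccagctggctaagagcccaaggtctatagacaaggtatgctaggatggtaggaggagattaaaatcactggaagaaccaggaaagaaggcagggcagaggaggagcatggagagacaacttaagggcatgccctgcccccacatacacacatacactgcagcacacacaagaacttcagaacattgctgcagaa
Cyp2c29: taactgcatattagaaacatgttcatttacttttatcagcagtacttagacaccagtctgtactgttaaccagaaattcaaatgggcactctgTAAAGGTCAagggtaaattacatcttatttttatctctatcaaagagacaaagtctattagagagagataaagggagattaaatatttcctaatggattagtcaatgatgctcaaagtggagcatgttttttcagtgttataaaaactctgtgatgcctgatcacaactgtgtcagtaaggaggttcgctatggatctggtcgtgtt
Both strands were searched, and neither match overlaps another motif searched. The element occurs in 421 of 32851 windows (1.28%) and 387 of 27025 genes (1.43%), beside 2 of 50 members (4%), and contains the letters AGGTCA that other nuclear receptors also bind. Of the 2 genes, *Cyp2f2* was a DEG in ERRα-/- livers under saline and *Cyp2c29* was not, and no match says only that these letters are absent from the window.

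Of the Cyp2d genes, *Cyp2d40* held 49.3, 83.6, 48.9 and 47.3 CPM in WT insulin and 40.8, 31.8 and 30.8 in ERRα-/- insulin livers. The ERRα-/- livers were all below the WT livers (log2 fold change −0.74, SE 0.22, adjusted p = 0.272, a DEG with lower expression). Under saline it held 39.3, 60.1, 43.5 and 59.7 and 29.1, 52.1, 19.7 and 34.5 CPM, overlapping groups and a DEG (−0.58, SE 0.26, adjusted p = 0.392) lost without ERRα-/- saline 1 (−0.52), ERRα-/- saline 3 (−0.39), ERRα-/- saline 4 (−0.59), WT saline 2 (−0.49) and WT saline 4 (−0.49). *Cyp2d9*, a male-type steroid hydroxylase, held 1248, 1379.6, 1093 and 1243 CPM in WT insulin and 1634, 1493 and 1677 in ERRα-/- insulin livers. The ERRα-/- livers were all higher (log2 fold change 0.36, SE 0.13, adjusted p = 0.370, a DEG lost without ERRα-/- insulin 1 (0.35) and ERRα-/- insulin 4 (0.34), and with the replicate block (0.30) and all groups in the fit (0.37)), and the interaction, 0.68, SE 0.30, was a DEG lost without ERRα-/- saline 4 (0.62), ERRα-/- insulin 1 (0.67), ERRα-/- insulin 4 (0.65), WT saline 3 (0.64), WT saline 4 (0.65), WT insulin 3 (0.62) and WT insulin 4 (0.68). *Cyp2d10* and *Cyp2d26*, abundant genes of the same cluster, were not DEGs in any comparison, nor were *Cyp2j5* and *Cyp20a1*.

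*Cyp2j6* and *Cyp2j9* belong to a subfamily that oxidises arachidonic acid. *Cyp2j6* measured 67.3, 73.6, 57.6 and 76.4 CPM in WT saline and 54.3, 55.9, 41.9 and 40.5 in ERRα-/- saline livers. No value overlapped and it was a DEG with lower expression (log2 fold change −0.51, SE 0.14, adjusted p = 0.206). With insulin it held 69.9, 62.8, 77.0 and 71.1 CPM in WT and 65.5, 80.7 and 58.7 in ERRα-/- livers, so that insulin in ERRα-/- was a DEG with higher expression (0.50, SE 0.15, adjusted p = 0.111), as was the interaction (0.47, SE 0.20, lost without ERRα-/- saline 3 (0.41), ERRα-/- saline 4 (0.40), ERRα-/- insulin 2 (0.34), WT saline 2 (0.44), WT saline 4 (0.42) and WT insulin 2 (0.42), and with the replicate block (0.43)). *Cyp2j9* held 6.25, 5.76, 6.12 and 6.66 CPM in WT littermates and 5.06, 4.39, 4.75 and 4.19 in ERRα3SA livers. Each ERRα3SA liver was below each littermate, the member DEG with the smallest p of the knock-in comparison (−0.43, SE 0.11, adjusted p = 0.528, lost with all groups in the fit (−0.43)). In the insulin experiment it held 5.75, 4.70, 7.08 and 4.16 CPM in WT saline, 2.28, 2.84, 4.64 and 3.23 in WT insulin and 2.57, 3.25, 5.20 and 2.06 in ERRα-/- saline livers. It was a DEG with lower expression with insulin in WT (−0.74, SE 0.27, adjusted p = 0.186, lost without WT saline 3 (−0.58)) and in ERRα-/- under saline (−0.73, SE 0.30, adjusted p = 0.348, lost without ERRα-/- saline 1 (−0.63), ERRα-/- saline 2 (−0.72), ERRα-/- saline 4 (−0.56), WT saline 1 (−0.70) and WT saline 3 (−0.57)). *Cyp3a25*, the highest gene of family 3 per kb of exon though not in CPM, was a DEG with lower expression with insulin in WT (−0.36, SE 0.16, adjusted p = 0.266), from 309, 452, 353 and 452 to 246, 323, 330.0 and 319 CPM. The call was lost without WT saline 2 (−0.28), WT saline 4 (−0.28), WT insulin 1 (−0.27) and WT insulin 4 (−0.38), and with all groups in the fit (−0.36).

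The 26 members outside the rule for named genes are given by range and counts, with a few singled out after their values were seen. *Cyp2a5*, which hydroxylates coumarin, and *Cyp2c23* were DEGs with lower expression with insulin in WT (−0.61, SE 0.23, adjusted p = 0.204, and −0.65, SE 0.26, adjusted p = 0.227). Both calls were lost without WT saline 4, and they were not both kept without WT insulin 2. *Cyp2d22* was a DEG with higher expression in ERRα-/- under insulin (0.37, SE 0.14, adjusted p = 0.420) and in the interaction (0.42, SE 0.19, adjusted p = 0.557), and *Cyp4b1* was lower in ERRα-/- under insulin (−0.48, SE 0.19, adjusted p = 0.423). Under insulin *Cyp2d22* lost its call without ERRα-/- insulin 1 or 2, and *Cyp4b1* without ERRα-/- insulin 1 or WT insulin 4. The interaction call of *Cyp2d22* was lost without ERRα-/- saline 4, ERRα-/- insulin 1, 2 or 4, WT saline 2 or 4, or WT insulin 1. *Cyp4f39* was a DEG with higher expression in ERRα3SA (0.87, SE 0.37, adjusted p = 0.651) at 0.151, 0.301, 0.448 and 0.424 CPM in WT littermates and 0.492, 0.717, 0.698 and 0.461 in ERRα3SA livers. It lost this call without ERRα3SA 3 (0.78), and also without WT littermate 1, WT littermate 2 or ERRα3SA 2. *Cyp2c70*, which makes muricholic acids, ranged from 48.8 to 323 CPM in the insulin experiment and was not a DEG. Over all members tested, log2 fold changes ran from −2.33 to 1.55 with insulin in WT, −5.46 to 1.71 with insulin in ERRα-/-, −3.18 to 2.57 and −2.24 to 1.64 in ERRα-/- against WT under saline and insulin, −8.71 to 1.82 for the interaction and −1.68 to 2.30 in ERRα3SA. The number of members with 10 counts or more was 58 to 62 per liver.

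**Figure D5:**
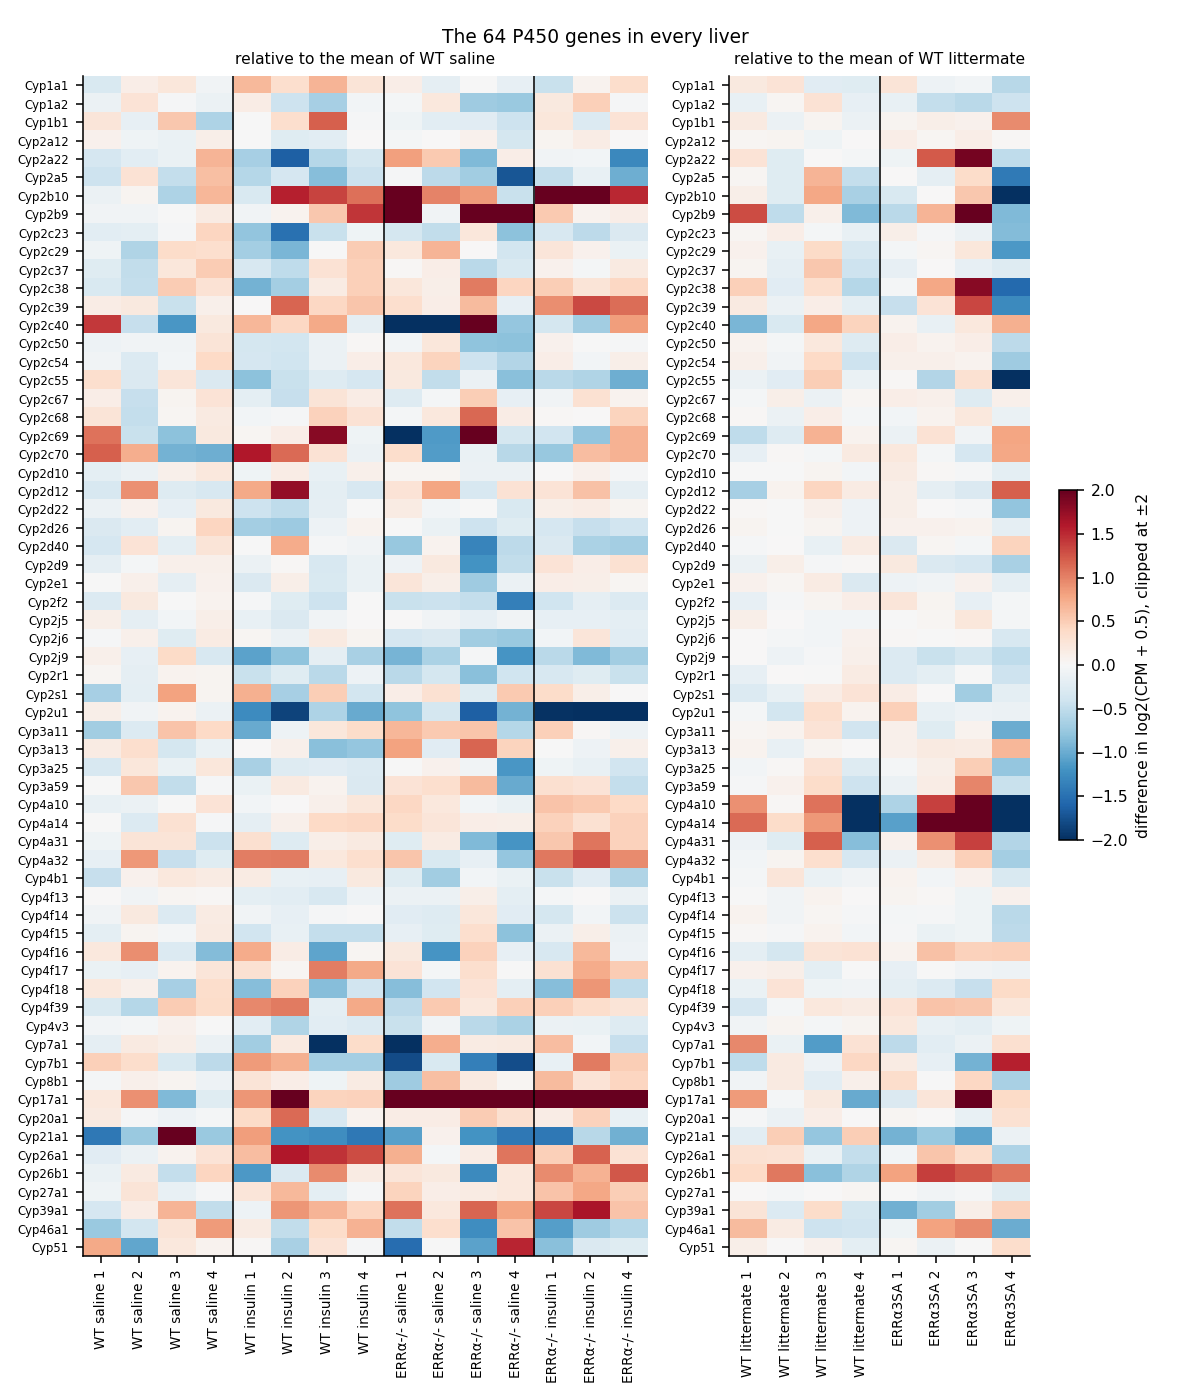
Difference in log2(CPM + 0.5) of the 64 members in each liver from the mean of WT saline (left) or WT littermates (right), clipped at 2 in each direction. *Cyp17a1* is high in each ERRα-/- liver, *Cyp2u1* is lowest in ERRα-/- insulin livers, and ERRα-/- saline 3 and ERRα3SA 3 and 4 stand apart in several genes.

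In skeletal muscle the members took 0.0163% of counts in WT littermates and 0.0141% in ERRα3SA, and 18 to 23 of the 64 had 10 counts or more per muscle. *Cyp27a1* led with 41.0% and 37.1% of member counts, 32.1 to 70.2 CPM of all counts over the 8 muscles. Next by mean were *Cyp2e1* (13.7 CPM), *Cyp26b1* (9.91), *Cyp2d22* (9.29), *Cyp51* (9.20), *Cyp39a1* (8.40) and *Cyp20a1* (7.33). In 1 ERRα3SA muscle 19.3% of counts came from the mitochondrial genome, against 9.15 to 10.8% in the other 7. These muscle values are levels only, with no test of genotype.

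Genes that serve P450 enzymes as electron partners or in haem synthesis and breakdown were 17. With insulin in WT 3 were DEGs with higher expression and 2 lower (all genes 8.34 and 8.91%), with insulin in ERRα-/- 1 and 4 (8.05 and 9.14%), in ERRα-/- against WT under saline 2 higher (5.98 and 5.3%), under insulin 1 and 1 (4.57 and 5.42%), in the interaction 2 lower (4.04 and 4.75%), and in ERRα3SA 1 higher of 16 (2.5 and 2.38%). Medians were 0.04, −0.17, 0.10, −0.05, −0.13 and −0.07, beside 0.00, −0.02, 0.00, −0.02, −0.02 and 0.00 over all genes. *Alas1*, the rate-limiting enzyme of haem synthesis, measured 422, 352, 207 and 418 CPM in WT saline and 202, 187, 138 and 177 in WT insulin livers, and 485, 393, 302 and 411 and 205, 215 and 217 in ERRα-/- livers. Each insulin liver was below each saline liver of its genotype, and it fell with insulin in WT (log2 fold change −0.99, SE 0.22, adjusted p = 0.0328) and in ERRα-/- (log2 fold change −0.91, SE 0.15, adjusted p = 0.0170). In WT its adjusted p was 0.106 without WT saline 1, 0.0710 without WT saline 2, 0.115 without WT saline 4, 0.0558 without WT insulin 2, 0.0694 without WT insulin 3 and 0.0881 without WT insulin 4 (range 2.71e-04 to 0.115 over alternatives), and in ERRα-/- 0.0827 without ERRα-/- insulin 1, 0.103 without ERRα-/- insulin 2 and 0.0864 without ERRα-/- insulin 4 (range 1.20e-06 to 0.103). *Cpox*, a later enzyme of the same pathway, fell in WT from 272, 253, 294 and 291 to 209.5, 182, 215 and 177 CPM (log2 fold change −0.50, SE 0.12, adjusted p = 0.0446), with an adjusted p above 0.05 without any 1 of the 8 livers (range over alternatives 0.00179 to 0.145). In ERRα-/- *Cpox* was a DEG with lower expression (−0.62, SE 0.19). *Por*, the reductase that feeds microsomal P450 enzymes, held 706, 877, 688 and 762 CPM in WT insulin and 1054, 1347 and 1033 in ERRα-/- insulin livers, a DEG with higher expression (0.58, SE 0.15, adjusted p = 0.203), as it was with insulin in ERRα-/- (0.53, SE 0.19). Other DEGs, by log2 fold change, included *Fdx1* (0.41 with insulin in WT, −0.41 in ERRα-/- under insulin, −0.65 in the interaction), *Cyb5b* (−0.45) and *Alad* (−0.42) with insulin in ERRα-/-, *Uros* (0.54 in ERRα-/- under saline, −0.55 in the interaction) and *Hmox1* (0.62 with insulin in WT, 0.79 in ERRα-/- under saline, 0.37 in ERRα3SA).

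Among 28 regulators of P450 genes, 3 were DEGs with higher expression and 9 lower with insulin in WT (all genes 8.34 and 8.91%), 3 and 6 with insulin in ERRα-/- (8.05 and 9.14%), 1 and 6 in ERRα-/- against WT under saline (5.98 and 5.3%), and 4 and 2 under insulin (4.57 and 5.42%). The interaction had 3 higher (4.04 and 4.75%) and ERRα3SA 1 higher of 27 (2.5 and 2.38%), and medians were −0.34, −0.09, −0.07, 0.11, 0.19 and −0.02, beside 0.00, −0.02, 0.00, −0.02, −0.02 and 0.00 over all genes. *Nr1i2*, the xenobiotic receptor PXR, measured 67.8, 73.4, 70.3 and 65.5 CPM in WT saline and 115, 104, 121 and 120.5 in WT insulin livers, with no overlap, and rose (log2 fold change 0.73, SE 0.11, adjusted p = 0.00577). *Nr5a2*, a receptor that acts on bile acid genes, went from 85.6, 82.9, 80.4 and 82.4 to 40.5, 48.8, 47.4 and 45.1 CPM in the same groups and fell (log2 fold change −0.86, SE 0.11, adjusted p = 0.00271). *Dbp*, a clock-controlled PAR bZIP factor, held 30.4, 33.9, 14.0 and 48.1 CPM in WT saline and 9.78, 7.72, 4.61 and 7.21 in WT insulin livers, and 13.5, 12.4, 8.38 and 17.5 and 5.44, 3.65 and 6.02 in ERRα-/- livers. It fell with insulin in WT (log2 fold change −2.11, SE 0.34, adjusted p = 0.00924) and in ERRα-/- (log2 fold change −1.36, SE 0.26, adjusted p = 0.0232), the latter with an adjusted p of 0.0520 without ERRα-/- saline 4, 0.0841 without ERRα-/- insulin 1, 0.122 without ERRα-/- insulin 2 and 0.0737 without ERRα-/- insulin 4 (range 3.10e-05 to 0.122 over alternatives). Its letters TTANGTAA occur in 1 of 50 member promoters, that of *Cyp2c38* at −84, beside 2.32% of 32851 windows and 2.72% of genes, searched on both strands.

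Other regulator DEGs with insulin in WT, by log2 fold change, included *Ahr* (−0.66), *Nr1i3* (−0.47), *Rxra* (−0.43), *Hnf4a* (0.44), *Tef* (−0.51), *Hlf* (−0.50), *Ppargc1a* (1.22) and *Bcl6* (−2.02). With insulin in ERRα-/- they were *Nr1i2* (0.50), *Rxra* (−0.28), *Hnf4a* (0.51), *Nr5a2* (−0.36), *Srebf1* (−0.77), *Stat5b* (0.39), *Klb* (−0.39) and *Cux2* (−1.33). In ERRα-/- under saline they included *Dbp* (−1.29), *Tef* (−0.65), *Hlf* (−0.42), *Ppargc1a* (0.95), *Klb* (−0.60) and *Onecut1* (−1.20). Under insulin they were *Ahr* (0.65), *Arnt* (0.33), *Nr5a2* (0.39), *Srebf1* (−1.12), *Foxo1* (0.46) and *Klb* (−0.61). *Ahr* (0.57), *Nr5a2* (0.51) and *Tef* (0.75) were DEGs in the interaction and *Bcl6* (2.12) in ERRα3SA.

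Promoter windows of RefSeq were found for 50 of the 64 members. *Cyp2c23*, *Cyp2c54*, *Cyp2d12*, *Cyp2d22*, *Cyp2u1*, *Cyp4a10*, *Cyp4a14*, *Cyp4a31*, *Cyp4f17*, *Cyp7a1*, *Cyp7b1*, *Cyp17a1*, *Cyp21a1* and *Cyp39a1* are not in the table.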

How the data were processed

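Gene-level read counts of 31 mouse samples (23 livers and 8 skeletal muscles) were taken from 2 tables deposited by the authors, who aligned paired-end reads to mm10 with STAR 2.5 and counted them per gene. The release of their gene models and the strand setting are not stated. Symbols, biotypes and exon lengths came from GENCODE vM21. The members, role groups and gene lists were chosen with earlier results of these data known, and members were sorted into roles after their values were seen. The range of total counts in each experiment is given in the report, and the lowest replicate chi-square per degree of freedom was 6.75, above the counting error of 1.

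Counts were fitted with edgeR 4.0.16 (filterByExpr, TMM factors, quasi-likelihood F test) in R 4.3.3, using only the groups of a comparison, or all 4 groups of the insulin experiment for the interaction. Standard errors are the absolute log2 fold change divided by the square root of F, and p-values were adjusted over all genes tested by the Benjamini-Hochberg method. Genes with an unadjusted p under 0.05 that changed by 1.2-fold or more count as DEGs. CPM used TMM factors over the livers of an experiment. Members were named when they had an adjusted p under 0.05 (where fewer than 3 did, the 4 DEGs with the smallest p), were among the 10 highest per kb of exon or the highest of their family, or were listed for their role.

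Alternatives were DESeq2 1.42.0, RLE size factors, no filter on low counts, replicate number as a block, all groups of an experiment in the fit, leaving out each replicate, and a pooled reading of the count minimum. The pipeline was tested on simulated data. Tables and figures used numpy 2.4.6, pandas 2.3.3, scipy 1.17.1 and matplotlib 3.10.9. Motifs were searched on both strands of RefSeq promoter windows. Genotype was not tested in muscle, where the members are mostly near 0, and muscle samples entered only the alternative with all groups of the knock-in experiment in the fit. Of the electron partner and haem genes and the regulators, 2 genes are counted in the group totals and are not reported here by name.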

Additional observations from a re-analysis of the deposited data

Results flagged for a closer look

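In groups of 4 livers, the highest or lowest sample was compared with the others by Dixon's ratio, the gap to its nearest neighbour over the whole range, against its 95% critical value. Of 200 groups examined for *Esrra*, the named members and the share of counts on all members, 18 held a sample this far from the rest. Chance gives about 1 in 20, or 10, if values are normally distributed and groups independent. Neither holds here, as members near 0 CPM are included and the same livers recur over genes, so 18 is not read as an excess.

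ERRα3SA 3 was far above its group for *Cyp17a1* (24.9 CPM against 4.21 to 7.0, ratio 0.865) and *Cyp2b9* (11.4 against 0 to 0.985, ratio 0.913). ERRα3SA 4 was far below for *Cyp2d26* (795 against 952 to 957, ratio 0.966) and *Cyp2j6* (75.0 against 93.8 to 96.0, ratio 0.898), and above for *Cyp3a13* (231 against 156 to 165, ratio 0.877). ERRα3SA 1 was above for *Cyp2u1* (48.5 against 31.3 to 32.5, ratio 0.933). *Cyp21a1* stood apart in WT saline 3 (9.71 against 0 to 0.302, ratio 0.969), WT insulin 1 (1.91 against 0 to 0.0851, ratio 0.956) and ERRα-/- saline 2 (0.921 against 0 to 0.131, ratio 0.858).

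ERRα-/- saline 3 was below its group for *Cyp26b1* (8.03 against 23.1 to 24.1, ratio 0.936). ERRα-/- saline 4 was below for *Cyp2f2* (161 against 297 to 308, ratio 0.924), *Cyp3a11* (471 against 1006 to 1104, ratio 0.845) and *Cyp3a25* (172 against 369 to 408, ratio 0.833). WT insulin 1 was below for *Cyp3a25* (246 against 319 to 330.0, ratio 0.873), and WT insulin 2 was above for *Cyp2d40* (83.6 against 47.3 to 49.3, ratio 0.945) and *Esrra* (96.5 against 53.7 to 59.0, ratio 0.876). WT saline 2 was below for *Cyp2r1* (7.78 against 9.12 to 9.32, ratio 0.865) and above for *Cyp4a32* (143 against 56.4 to 69.5, ratio 0.849). The causes were not tested.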

How the results depend on the processing

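Counts of members with an adjusted p under 0.05 moved with the processing more than counts of DEGs. Shares of all genes stand in brackets. With insulin in WT the count of 2 (3.16%) became 4 with replicate number as a block (3.02%). With insulin in ERRα-/- the count of 4 (2.91%) became 9 with DESeq2 (7.22%), 7 with no filter (3.23%), 8 with the block (3.76%) and 2 with all groups in the fit (1.79%). In ERRα-/- against WT under saline the count of 0 (0.0816%) became 3 with DESeq2 (1.84%), 2 with no filter (0.149%) and 1 with all groups in the fit (0.0818%). Under insulin the count of 0 (0.0585%) became 1 with DESeq2 (1.76%) and 1 with the block (0.0585%). The cause was not tested. All other counts under these settings and under RLE size factors were within 1.5 times.

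Leaving out 1 liver at a time, DEGs among members ran from 6 to 14 and adjusted calls from 0 to 2 with insulin in WT, 8 to 16 and 0 to 5 with insulin in ERRα-/-, 10 to 18 and 0 to 3 in ERRα-/- against WT under saline, 6 to 18 and 0 to 1 under insulin, 5 to 15 and 0 to 0 for the interaction, and 3 to 9 and 0 to 0 in ERRα3SA. Over all genes the shares of DEGs ran from 13.1 to 18.3%, 12.3 to 18.5%, 9.31 to 14.4%, 5.78 to 13.2%, 5.82 to 10.8% and 3.75 to 6.6% in that order. Shares of all genes with an adjusted call ran from 0.765 to 2.97%, 0.298 to 4.53%, 0.0145 to 0.341%, 0.0212 to 0.356%, 0 to 0% and 0 to 0%. Of 60 DEG results of named members, 30 kept direction and call in every alternative, 30 lost the call in at least 1, and 0 changed direction. No such share was computed over all genes, and named members were partly picked for a small p. DESeq2 lost 1 of these calls and kept 59, no filter 1 and 59, and the block 8 and 52. All groups in the fit, which leaves out the interaction, lost 9 and kept 42. Leaving out a liver lost 115 of 516. A pooled reading of the count minimum gives 73 members in place of 64.

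The labels link livers of the same number by that number only. Residual correlations over 0.1 occurred in 2 of 4, 0 of 3, 2 of 4, 0 of 3 and 1 of 4 pairs of the comparisons other than the interaction. The highest were 0.29 with insulin in WT, 0.164 in ERRα-/- against WT under saline and 0.333 in ERRα3SA. The liver correlated best with its own number in 2, 1, 3, 2 and 1 of these pairs. Some livers of the same number thus deviated together, for a reason that was not tested. The main fits used no pairing, and the block is an alternative only.

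Groups of 3 or 4 livers limit every call, the assignment of reads between related genes was not tested, and the members near 0 CPM in most livers (*Cyp2b9*, *Cyp21a1*, *Cyp46a1*, *Cyp4f39*) rest on few counts. Read length is not stated in the labels. The methods of the study define n in animal work as single mice.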
